A study of Mus musculus with 42 samples.

Results

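The genes described here are 10 genes of the glandular stomach, the acid- and mucus-secreting part of the organ that begins where the forestomach ends. They were followed in forestomach samples of mice given benzo(k)fluoranthene (BkF), one of the polycyclic aromatic hydrocarbons formed in combustion, with lung and liver for contrast. The members were chosen by gene symbol and fall into 4 cell classes: the parietal cell genes Atp4a and Atp4b, the chief cell gene Pgc, the pit mucous cell genes Gkn1, Gkn2, Tff1 and Muc5ac, and the neck mucous cell genes Gkn3, Tff2 and Muc6. Of the 10 genes, 9 had a named probe, with 11 probes in all among the 55681 probes of the array. Muc6 was matched to no named probe and was not analysed here. Pgc and Tff1 each had 2 probes, and the brighter one is given unless stated.

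Adult male Muta™Mouse, a transgenic strain that carries a lacZ reporter for mutation assays, were about 11 weeks old. They received BkF in olive oil by gavage every day for 28 days, and tissues were taken 72 hours after the last dose. The vehicle group (D0) received olive oil alone at 0 mg/kg-bw/day, and the dosed groups received 25 (D1), 50 (D2) and 100 (D3) mg/kg-bw/day. RNA came from a random slice of each tissue. Forestomach was measured on 14 arrays, from 4 D0, 3 D1, 4 D2 and 3 D3 mice, lung on 15 arrays (4, 3, 4 and 4 mice) and liver on 13 arrays (4, 2, 3 and 4 mice). Each array was hybridized with 1 mouse's RNA in Cy5 and a universal reference RNA from 11 mouse cell lines in Cy3. Values are log2 ratios of sample over reference after loess normalization within the array. A value near 0 is a level like that of the reference where both channels are well above background, and no measured level where neither is. The samples come from separate mice, and a mouse keeps its number in every tissue.

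The mouse stomach has 2 regions. The forestomach is lined by a keratinized squamous epithelium without glands, and the glandular stomach by a columnar epithelium that folds into pits and glands. Parietal cells in these glands secrete hydrochloric acid through the gastric proton pump, which exchanges hydrogen ions for potassium ions. Chief cells at the gland base secrete pepsinogens, the precursors of the protein-digesting enzyme pepsin. Pit cells cover the surface and secrete the gel-forming mucin MUC5AC together with trefoil factor 1 and gastrokines, whereas mucous neck cells secrete MUC6 and trefoil factor 2. Trefoil factors are small secreted proteins that stabilize mucus and aid repair of the epithelium.

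Promoter sequences were found in the RefSeq-derived table (build GRCm38.p6) for 6 of the 10 members. The window before the annotated start is shown for 1 member of each cell class, so that the classes described apart in the results can be set side by side. Each window holds the 250 bases before the start, written 5′ to 3′ along the gene's strand. Capitals mark TATAAA and the GATA hexamers, which are AGATAA, its variant AGATAG, the hexamer TGATAA and its variant TGATAG, searched on both strands. The hexamers share no letters with TATAAA in these windows.
Atp4a (chr7:30711959-30712208, strand +): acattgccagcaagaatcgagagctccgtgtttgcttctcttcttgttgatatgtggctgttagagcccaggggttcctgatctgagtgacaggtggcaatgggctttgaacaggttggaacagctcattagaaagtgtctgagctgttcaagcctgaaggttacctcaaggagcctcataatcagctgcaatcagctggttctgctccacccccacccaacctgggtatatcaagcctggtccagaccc
Pgc (chr17:47726592-47726841, strand +): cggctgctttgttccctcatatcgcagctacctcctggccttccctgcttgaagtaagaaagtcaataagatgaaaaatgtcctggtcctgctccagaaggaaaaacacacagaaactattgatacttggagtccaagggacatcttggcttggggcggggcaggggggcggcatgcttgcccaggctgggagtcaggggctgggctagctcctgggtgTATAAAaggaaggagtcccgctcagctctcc
Gkn2 (chr6:87373115-87373364, strand +): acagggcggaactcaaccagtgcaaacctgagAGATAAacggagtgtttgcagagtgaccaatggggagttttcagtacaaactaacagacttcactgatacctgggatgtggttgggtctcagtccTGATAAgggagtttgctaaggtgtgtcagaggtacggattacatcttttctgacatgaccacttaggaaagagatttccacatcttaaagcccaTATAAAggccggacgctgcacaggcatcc
Gkn3 (chr6:87388936-87389185, strand -): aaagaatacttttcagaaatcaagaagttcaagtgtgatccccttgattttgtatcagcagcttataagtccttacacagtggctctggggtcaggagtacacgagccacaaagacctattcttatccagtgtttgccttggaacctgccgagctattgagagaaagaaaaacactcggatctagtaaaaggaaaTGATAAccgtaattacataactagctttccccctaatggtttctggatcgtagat
TATAAA was present in the windows of Pgc, 31 bases before the start, and of Gkn2, 29 bases before the start. It was present in 12.4% of all 32851 promoter windows of the same length. A GATA hexamer was present in the windows of Gkn1, Gkn2, Gkn3 and Muc6, and in 26.5% of all windows. In Gkn2 the matches began 218 and 123 bases before the start, and in Gkn3 the match began 55 bases before it. Neither motif was found in the Atp4a window. These matches describe the letters of the windows only.

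The forestomach arrays fell into 2 sets for most members. On 9 of the 14 arrays every member was well above background in the sample channel, and on the other 5 only 3 to 6 of the 9 members were. The 9 arrays were D0 mice 2 and 3, D1 mice 7, 8 and 9, D2 mice 12, 13 and 15, and D3 mouse 17. The 5 arrays were D0 mice 1 and 4, D2 mouse 11, and D3 mice 16 and 20. All dose groups but D1 therefore held arrays of both kinds. A probe is said to be at background where the scanner software did not flag its sample signal as well above it. In these bulk samples fewer cells of a type and less RNA per cell cannot be told apart. The sets are a reading of the values and are not groups of the study, so they were not compared by a test.

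**Figure D1:**
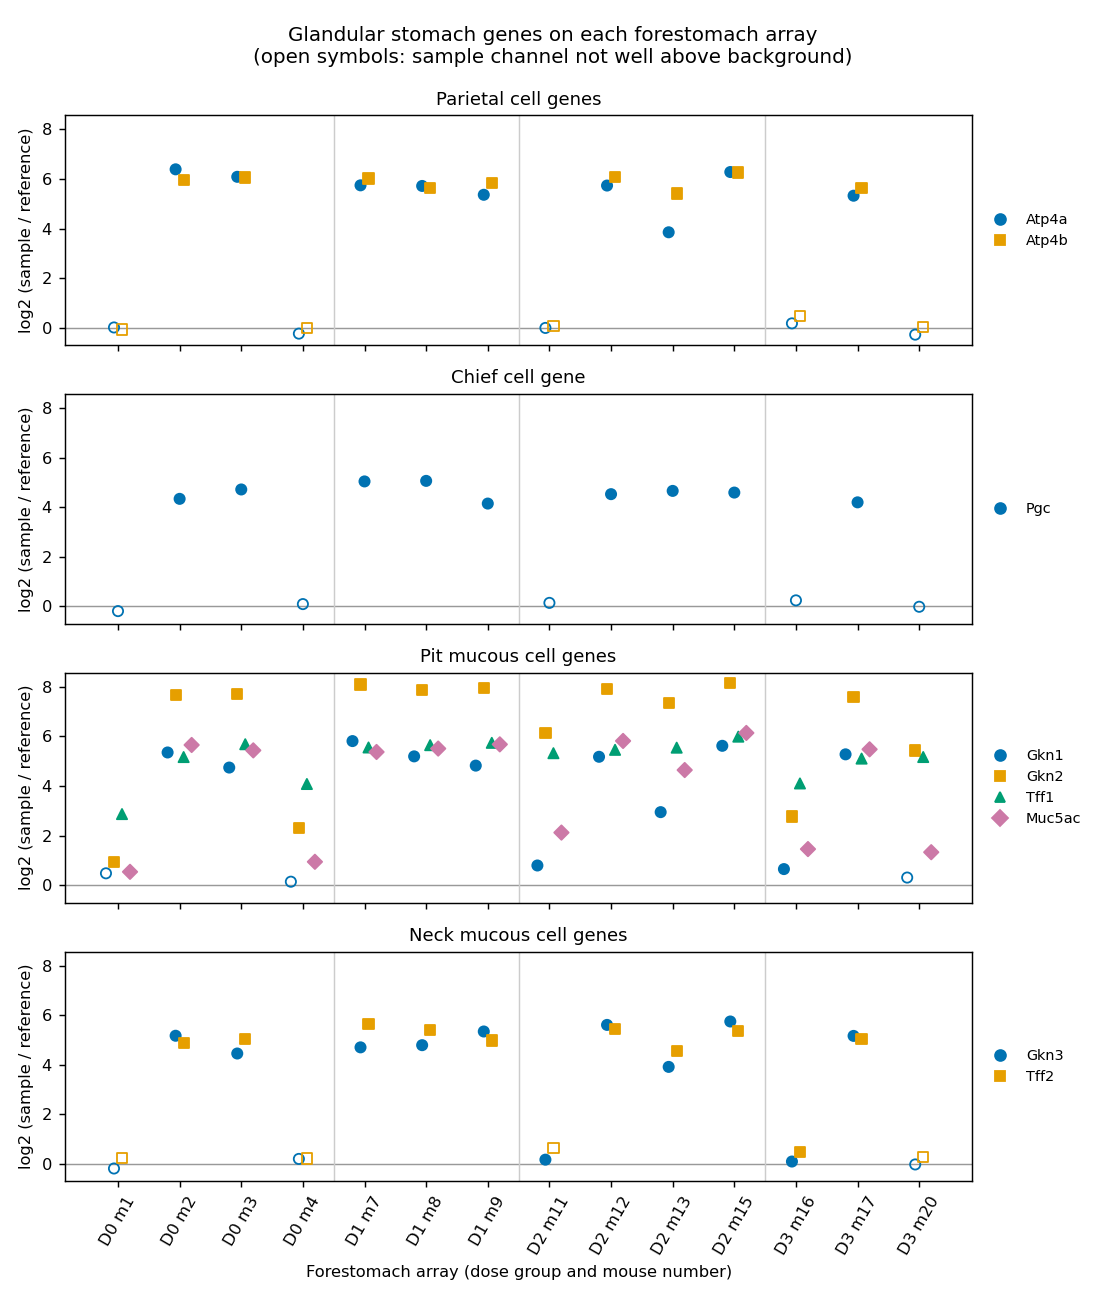
Log2 ratio of sample over reference (vertical axes) of each glandular stomach gene on each of the 14 forestomach arrays (horizontal axis, dose group and mouse number), with 1 panel per cell class and open symbols where the sample channel was not well above background. The parietal, chief and neck mucous cell genes sit near 0 on 5 arrays (D0 mice 1 and 4, D2 mouse 11, D3 mice 16 and 20), while Gkn2 and Tff1 of the pit cells stay at 0.94 or higher on all 14.

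Atp4a encodes the catalytic subunit of the gastric proton pump. In vehicle mice 1, 2, 3 and 4 its log2 ratio was 0.01, 6.39, 6.09 and -0.24. At D1 it was 5.74, 5.72 and 5.36 in mice 7, 8 and 9, at D2 it was -0.01, 5.73, 3.85 and 6.28 in mice 11, 12, 13 and 15, and at D3 it was 0.17, 5.32 and -0.28 in mice 16, 17 and 20. No array lay between 0.17 and 3.85. The vehicle group alone spanned the range of all dosed mice but D3 mouse 20.

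Atp4b encodes the glycosylated subunit that the pump needs to reach the membrane. Its log2 ratio was -0.08, 5.95, 6.06 and -0.01 in the vehicle mice, 6.02, 5.63 and 5.85 at D1, 0.08, 6.09, 5.41 and 6.26 at D2, and 0.47, 5.65 and 0.01 at D3. The same 5 arrays were low, and no array lay between 0.47 and 5.41. On the scanner scale the median sample intensity of the Atp4b probe ran from 65.0 in vehicle mouse 1 to 75565 in vehicle mouse 2. Both parietal cell genes were not well above background on the same 5 arrays.

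Pgc encodes pepsinogen C, a chief cell zymogen. Its log2 ratio was -0.19, 4.34, 4.72 and 0.09 in the vehicle mice, 5.04, 5.06 and 4.15 at D1, 0.14, 4.53, 4.66 and 4.59 at D2, and 0.24, 4.20 and -0.02 at D3. The same 5 arrays were low and not well above background, and no array lay between 0.24 and 4.15. The other Pgc probe gave the same 2 sets, from -0.19 to 0.26 on the 5 arrays and from 4.18 to 5.28 on the 9. D2 mouse 13 had the lowest Atp4a, Atp4b, Gkn1, Gkn2, Muc5ac, Gkn3 and Tff2 ratios of the 9 arrays. Its Pgc ratio of 4.66 and its Tff1 ratio lay within the range of the others.

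Of the pit mucous cell genes, Gkn2, Tff1 and Muc5ac stayed well above background on the 5 low arrays, and Gkn1 did so on 2 of them. Gkn2, a secreted gastrokine of pit cells, had a log2 ratio of 0.94, 7.66, 7.70 and 2.30 in the vehicle mice, 8.10, 7.88 and 7.94 at D1, 6.13, 7.93, 7.35 and 8.15 at D2, and 2.77, 7.59 and 5.43 at D3. It was well above background on all 14 arrays. Its widest gap lay between 2.77 and 5.43, so that D2 mouse 11 and D3 mouse 20 sat with the high arrays by this measure, although their Atp4a, Atp4b and Pgc were not well above background. The Gkn2 sample intensity of D2 mouse 11 was 3181.8, the lowest of its group, against 64764 to 117620 in the D1 mice.

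Tff1, the pit cell trefoil factor, was well above background on all 14 arrays too. Its log2 ratio was 2.86, 5.17, 5.68 and 4.08 in the vehicle mice, 5.55, 5.65 and 5.74 at D1, 5.32, 5.46, 5.54 and 5.99 at D2, and 4.10, 5.10 and 5.17 at D3. D2 mouse 11 and D3 mouse 20 were within the range of the 9 arrays on which all members were detected. Sample intensities of the same probe told those arrays apart, with 11860 and 5704 in these 2 mice against 47958 to 249980 on the 9 arrays.

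Muc5ac, the surface mucin, was also well above background on all 14 arrays, at 0.53, 5.65, 5.44 and 0.94 in the vehicle mice, 5.37, 5.51 and 5.68 at D1, 2.12, 5.82, 4.64 and 6.14 at D2, and 1.45, 5.48 and 1.33 at D3. Gkn1, the gastrokine first described in the gastric antrum, was at 0.47, 5.35, 4.74 and 0.14 in the vehicle mice, 5.81, 5.19 and 4.82 at D1, 0.79, 5.18, 2.94 and 5.62 at D2, and 0.65, 5.28 and 0.30 at D3. Gkn1 was not well above background in vehicle mice 1 and 4 and in D3 mouse 20. Both genes put the 5 arrays below the other 9, with no Muc5ac value between 2.12 and 4.64 and no Gkn1 value between 0.79 and 2.94.

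The neck mucous cell genes split the arrays as the parietal and chief cell genes did. Gkn3, a gastrokine of the neck region, was at -0.19, 5.17, 4.45 and 0.20 in the vehicle mice, 4.70, 4.79 and 5.34 at D1, 0.17, 5.60, 3.91 and 5.74 at D2, and 0.09, 5.16 and -0.03 at D3. Tff2, the trefoil factor of neck cells, was at 0.25, 4.87, 5.03 and 0.22 in the vehicle mice, 5.65, 5.39 and 4.98 at D1, 0.65, 5.45, 4.56 and 5.37 at D2, and 0.48, 5.03 and 0.27 at D3. The largest value on the 5 low arrays was 0.20 for Gkn3 and 0.65 for Tff2, and the smallest on the other 9 was 3.91 and 4.56. Gkn3 was still well above background in D2 mouse 11 and D3 mouse 16, and Tff2 in D3 mouse 16.

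Averaged by class, the parietal cell genes ranged from -0.13 to 6.27 over the 14 arrays, Pgc from -0.19 to 5.06, the pit genes from 1.20 to 6.47 and the neck genes from 0.03 to 5.56. On D2 mouse 11 the pit genes averaged 3.59 while the parietal genes averaged 0.03 and the neck genes 0.41. On D3 mouse 20 the pit genes averaged 3.06 and the parietal genes -0.13. Over the 5 arrays the pit class ranged from 1.20 to 3.59 and the parietal class from -0.13 to 0.32.

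The spread of the members was wide against other probes on these arrays. The SD of the log2 ratio over the 14 arrays was 2.89 for Atp4a and Atp4b, 2.27 for Pgc, 2.35 for Gkn1, 2.47 for Gkn2, 2.16 for Muc5ac, 2.50 for Gkn3 and 2.39 for Tff2, and 0.85 for Tff1. The median SD over the 25321 probes that passed the filter on dim probes was 0.28, and 118 probes had an SD of 2 or more. By SD the members other than Tff1 ranked between 24 and 91 among these probes, and Tff1 ranked 1259. This SD is that of the ratio, and the sample intensity of the Tff1 probe alone ran from 222 to 249980.

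The reference channel moved with the sample channel at these probes, although the reference RNA was the same on all arrays. For Pgc the reference intensity ranged 576-fold over the 14 forestomach arrays, from 31.0 to 17864. For each of the 9 members the lowest reference intensities were those of the 5 arrays with the lowest sample intensities. The reference range was 489-fold for Tff2, 227-fold for Tff1, 109-fold for Atp4b, 104-fold for Gkn2, 74.3-fold for Muc5ac, 28.0-fold for Gkn3, 23.7-fold for Atp4a and 3.55-fold for Gkn1. The median over all probes that passed the filter was 1.39-fold, and 117 probes (0.462%) had a reference range of 10-fold or more. The sample intensity itself ranged 2286-fold for Gkn2, 1704-fold for Tff2, 1396-fold for Pgc, 1163-fold for Atp4b, 1126-fold for Tff1, 550-fold for Muc5ac, 349-fold for Gkn3, 154-fold for Atp4a and 25.5-fold for Gkn1. No member probe was saturated on any array. The source of the reference signal was not tested.

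**Figure D2:**
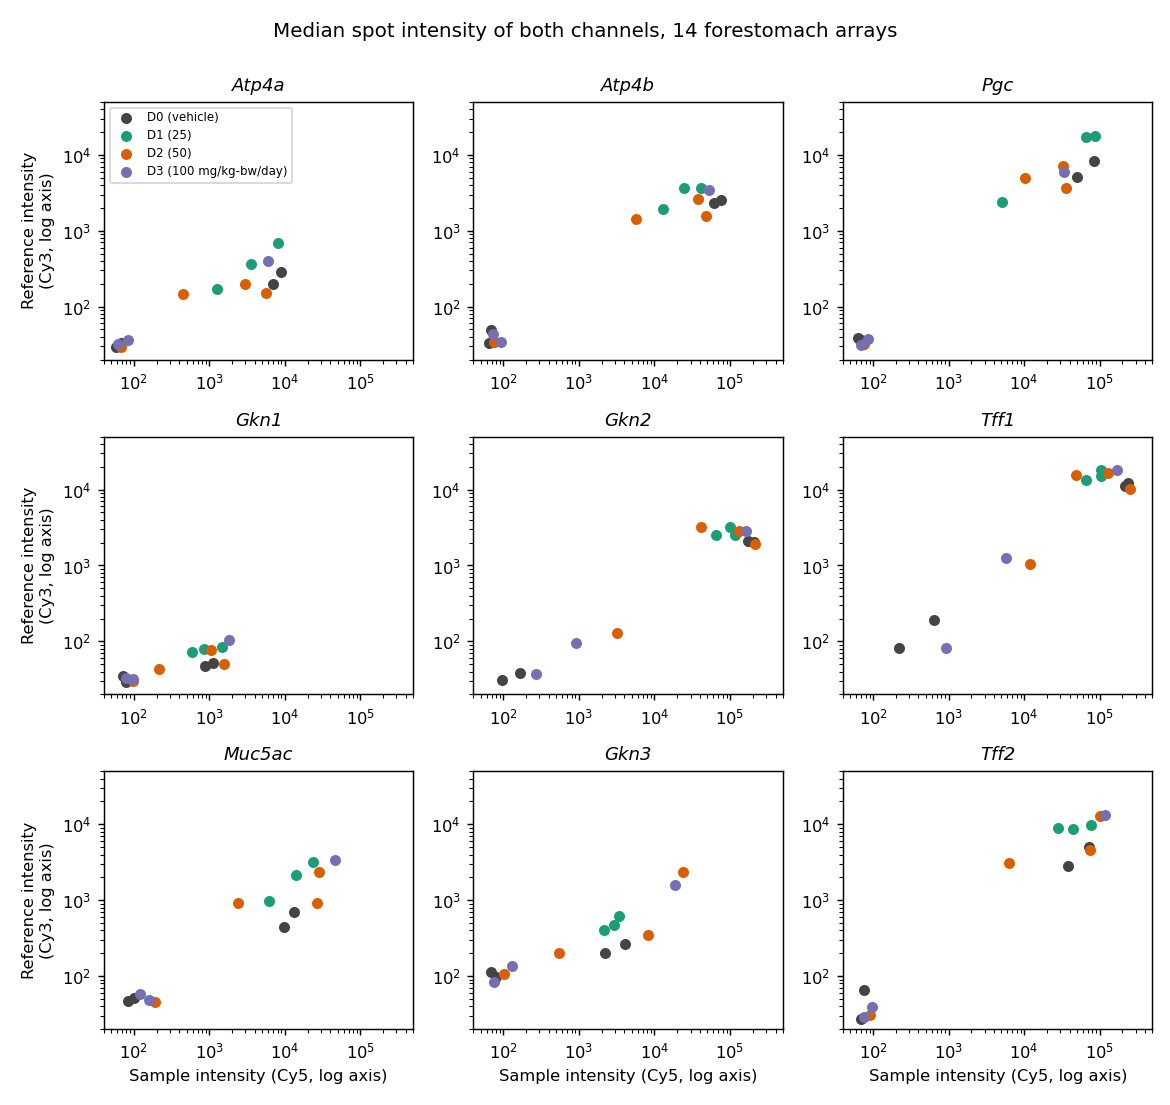
Median spot intensity of the reference channel (vertical axes, log scale) against that of the sample channel (horizontal axes, log scale) for each member, 1 point per forestomach array, colored by dose group. The 5 arrays with the lowest sample intensity have the lowest reference intensity in each panel, over a 576-fold range for Pgc and a 3.55-fold range for Gkn1.

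The question of the dose design was whether BkF changed gene expression in a tissue relative to the vehicle control. No member passed the test at any dose in forestomach, and no probe did: limma called 0 of 25287 probes (0%) for D1, D2 and D3 against D0 and for the linear dose trend. Before adjustment, p was under 0.05 for 3070 probes at D1, 1922 at D2, 561 at D3 and 712 for the trend, among them 2, 1, 0 and 0 of the 9 members. At D1 the 9 members had positive differences from vehicle, with a median of 2.55 on the log2 scale against -0.01 over all probes tested. At D2 the median was 1.42 against 0.02, again with 9 of 9 positive, and at D3 it was -0.66 against 0.00, with 2 of 9 positive. These differences stood beside the number of arrays with all members detected, which was 2 of 4 at D0, 3 of 3 at D1, 3 of 4 at D2 and 1 of 3 at D3.

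For the proton pump the SD within the vehicle group was larger than any difference. The mean Atp4b ratio was 2.98 ± 3.49 (SD, n = 4) at D0, 5.83 ± 0.20 (n = 3) at D1, 4.46 ± 2.94 (n = 4) at D2 and 2.04 ± 3.13 (n = 3) at D3. The difference from vehicle was 2.85 with a standard error of 1.93 at D1 (limma adjusted p = 0.549), 1.48 with a standard error of 1.79 at D2 (adjusted p = 0.891) and -0.94 with a standard error of 1.93 at D3 (adjusted p = 1). Atp4a differed by 2.55, 0.90 and -1.32, with standard errors of 1.96, 1.81 and 1.96. The 3 D1 values of both genes lay inside the range of the vehicle mice.

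In the log2 ratio Gkn2 had the largest D1 difference of the members. Its mean was 4.65 ± 3.54 (n = 4) at D0, 7.97 ± 0.11 (n = 3) at D1, 7.39 ± 0.90 (n = 4) at D2 and 5.26 ± 2.42 (n = 3) at D3. The D1 difference of 3.33 with a standard error of 1.53 had a limma adjusted p of 0.411, and the 3 D1 mice lay above all 4 vehicle mice. For Tff1 the D1 difference was 1.20 with a standard error of 0.51 (limma adjusted p = 0.393), and the D2 difference was 1.13 with a standard error of 0.48 (limma adjusted p = 0.622). Of the 3 D1 mice 1 exceeded all vehicle mice in Tff1.

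Pgc differed from vehicle by 2.51, 1.24 and -0.76 at D1, D2 and D3, with standard errors of 1.47, 1.36 and 1.47. Muc5ac differed by 2.38, 1.54 and -0.39, Gkn1 by 2.60, 0.96 and -0.60, Gkn3 by 2.54, 1.45 and -0.66, and Tff2 by 2.75, 1.42 and -0.66. None of these passed the test, with adjusted p between 0.479 and 1. In the sample channel alone, scaled to each array's 75th percentile, the D1 differences ran from 3.97 for Tff1 to 7.57 for Tff2 and none was called.

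**Figure D3:**
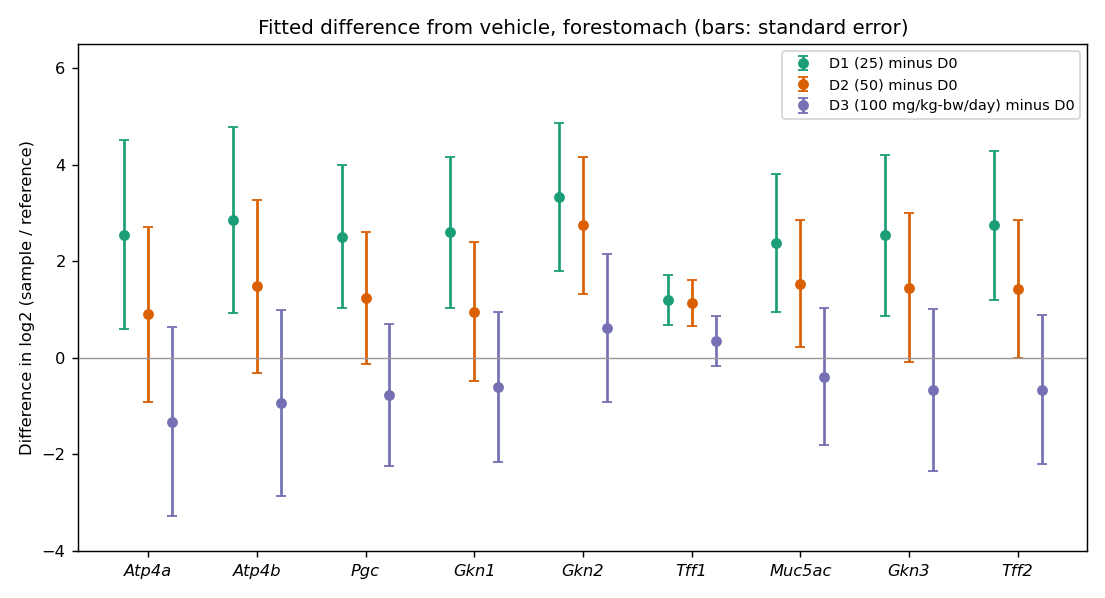
Fitted difference in log2 ratio between each dose group and the vehicle group (vertical axis) for each member (horizontal axis) in forestomach, with bars of 1 standard error. Points of D1 and D2 lie above 0 for all 9 members and those of D3 below 0 for 7, and no difference passed the adjusted threshold.

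Other genes of the same cell classes were read on the same arrays. Among 11 other parietal cell genes with a probe, the 3 with the widest range were Kcne2 and Kcnq1, the subunits of the potassium channel that feeds the proton pump, and Esrrg, a nuclear receptor of parietal cells. Kcne2 was 0.28, 6.95, 6.43 and 0.05 in the vehicle mice and 0.02, 6.87, 3.35 and 5.93 at D2. Ckb, a creatine kinase, had the narrowest range of that list, from 3.68 to 4.75, with 4.44 in D2 mouse 11 and 3.68 in D3 mouse 17. The parietal list averaged 0.96 to 4.28 over the 14 arrays.

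Of the other chief cell genes, Cblif, which encodes gastric intrinsic factor and is a chief cell product in mice, Chia1, an acidic chitinase, and Pga5, another pepsinogen, had the widest ranges. Cblif was 0.03, 7.90, 7.89 and 0.08 in the vehicle mice, 8.29, 8.04 and 6.88 at D1, 0.11, 7.81, 6.91 and 7.79 at D2, and 0.31, 7.20 and 0.23 at D3. Bhlha15, a transcription factor of mature zymogenic cells, had the narrowest range of the 4 genes that passed, from -2.07 to 1.88. Lipf, gastric lipase, was at background on all 14 arrays.

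Of the 14 other mucous cell genes, Anxa10, an annexin, Vsig1, a junctional protein, and Mucl3, a mucin-like protein, were widest. Anxa10 was 2.29 in D2 mouse 11 and 1.03 in D3 mouse 20 against 0.04, 0.19 and 0.16 in D0 mice 1 and 4 and D3 mouse 16. Mucl3 was likewise 3.18 and 1.73 in D2 mouse 11 and D3 mouse 20, and between -0.20 and 0.53 in the other 3. Both genes thus put these 2 arrays above the other 3, as Gkn2 and Tff1 did. Tff3, the intestinal trefoil factor, had the narrowest range, from -0.10 to 1.86.

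Of 9 gastric endocrine genes, 8 passed the filter. Chgb, a granin of endocrine granules, ranged from 0.30 to 6.97, Sst, the hormone of D cells, from -0.09 to 4.37, and Hdc, the histamine-forming enzyme of enterochromaffin-like cells, from -0.14 to 4.13. Gast, the antral hormone gastrin, stayed between -0.24 and 0.65. For D1 against D0 the differences were positive for 11 of 11 parietal, 4 of 4 chief, 13 of 14 mucous and 8 of 8 endocrine genes that passed the filter, with medians of 1.20, 2.34, 2.48 and 1.28. At D3 they were negative for 9, 4, 10 and 4 of these genes, with medians of -0.26, -1.25, -0.26 and 0.02. No gene of these lists was called at any dose.

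The sample's own label was checked with 24 squamous epithelium genes. Between 21 and 24 of them were well above background on each of the 14 arrays, and their mean log2 ratio ran from 3.57 in D2 mouse 12 to 4.69 in vehicle mouse 3. Krtdap, a keratinocyte differentiation protein, kept to 5.57 to 6.10 on all arrays. The widest genes of the list were Krt4, a keratin of the layers above the base, Dsc2, a desmosomal cadherin, and Krt6b. Krt4 was 6.37, 6.63, 6.23 and 6.02 in the vehicle mice, 3.22, 1.75 and 4.80 at D1, 5.66, 1.22, 3.47 and 3.26 at D2, and 6.34, 4.75 and 5.75 at D3. Dsc2 was 0.58, 4.52, 4.37 and 0.58 in the vehicle mice, 5.24, 4.61 and 3.52 at D1, 2.14, 5.23, 3.03 and 4.69 at D2, and 1.66, 5.44 and 0.69 at D3, so that it was lowest on the same 5 arrays as the members. For D1 against D0, 18 of the 23 squamous genes that passed the filter had negative differences, with a median of -0.47, and none was called.

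Smooth muscle genes were present on every array, with 9 or 10 of 10 well above background and a mean between 2.49 in D2 mouse 12 and 5.08 in D2 mouse 15. Synm, Des and Tagln, all of the muscle cytoskeleton, had the widest ranges, and Myh11, the smooth muscle myosin heavy chain, the narrowest, from 4.46 to 5.71. D2 mice 12 and 15 had the lowest and the highest mean of this list, and both had every member well above background. At D1 all 10 smooth muscle genes had negative differences from vehicle, with a median of -0.50, and none was called.

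**Figure D4:**
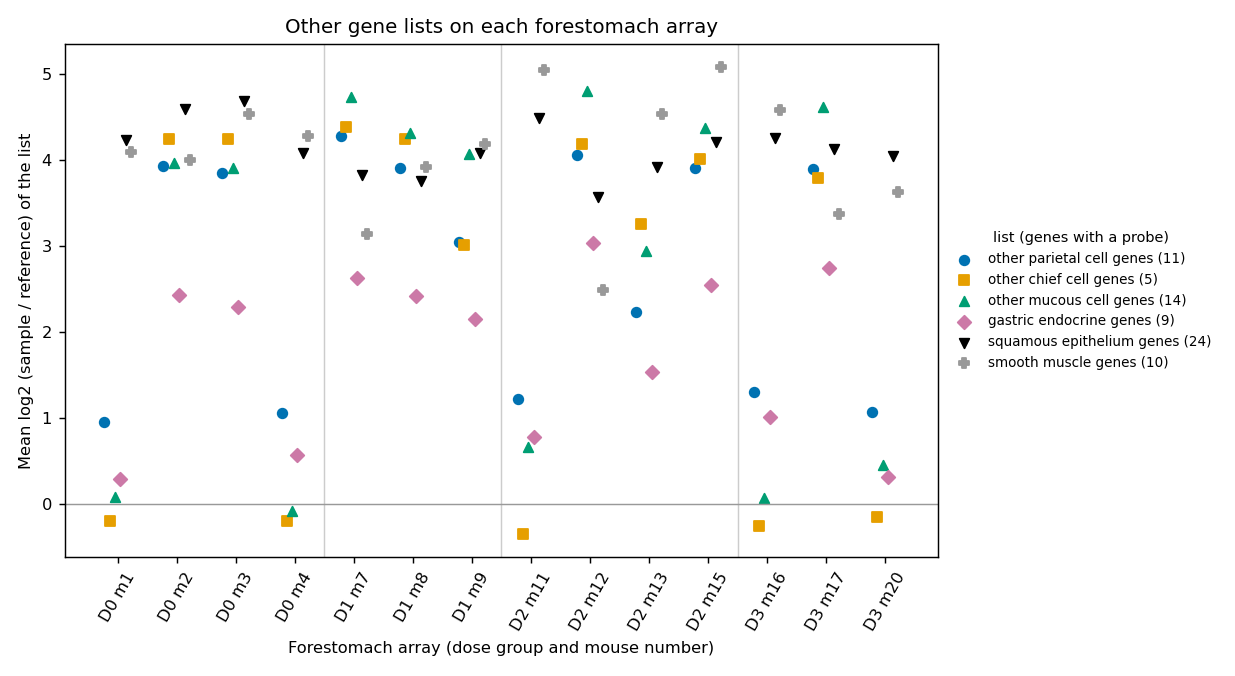
Mean log2 ratio (vertical axis) of 6 lists of genes that are not members on each of the 14 forestomach arrays (horizontal axis, dose group and mouse number), 1 symbol per list. The 4 gastric lists are low on the 5 arrays where the members are low, while the squamous list stays between 3.57 and 4.69 and the smooth muscle list between 2.49 and 5.08.

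Lists of other tissues were read on the same arrays. In the pancreatic acinar list, Reg1, Clps and Pnliprp1 had the widest ranges. Clps, colipase, followed the members at 0.62, 6.66, 6.90 and 0.27 in the vehicle mice. The acinar enzymes Cpa1, Cela2a, Cela3b and Pnlip were at background on all 14 arrays. Others were well above background on some or all arrays: Cel on 14, Cela1 on 11, Ctrb1 on 10, Prss2 and Rnase1 on 7 and Cpb1 on 5. Ctrl had the narrowest range of the 10 genes that passed, from -0.25 to 0.23. Of 12 small intestinal genes, Vil1, a microvillus protein, Fabp2 and Rbp2 were widest and Apoa4 the narrowest of the 7 that passed. The intestinal markers Cdx1, Cdx2, Muc2, Sis and Alpi were at background on all 14, whereas Guca2a, Guca2b and Lct were well above it on 12, 11 and 5. Of 8 hepatocyte genes, Ttr, Apoa1 and Serpina1a were widest and Hpx the narrowest of the 7 that passed. Ttr was 0.03, 5.82, 4.85 and -0.06 in the vehicle mice. Cyp2e1, Alb and Fgb reached 4.49, 3.75 and 3.44 and were well above background on 10, 8 and 4 arrays. The liver enzyme Cps1 was at background on all arrays.

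Of the lung epithelium list, Aqp5, Sftpd and Scgb1a1 were widest and Lamp3 narrowest of 5 that passed. Sftpd was 0.00, 3.19, 2.68 and 0.08 in the vehicle mice, while Ager and Sftpa1 were at background on all 14 arrays. Sftpc reached 2.38 and was well above background on 4 arrays, and Sftpb on 1. The part of these other tissues in the members' values was not tested. Of the skeletal muscle genes Myh2, Acta1 and Tnnt3 were widest and Pvalb narrowest of the 7 that passed, and of the fat genes Cfd, Adipoq and Cidec were widest and Plin4 narrowest of the 5 that passed. The fat list was highest on D3 mouse 16, at a mean of 4.10, and D0 mouse 4, at 2.79, against 0.95 to 1.71 on the other 12 arrays, and both of these arrays had low parietal cell genes. Of the lymphocyte genes Cd79b, Cd3e and Cd3g were widest and Jchain narrowest of the 4 that passed, and the list's mean ran from -1.71 to -1.08.

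The number of probes well above background was 15663 to 25620 on the forestomach arrays, 22588 to 33383 on the lung arrays and 21362 to 32106 on the liver arrays. On the 5 low arrays it was 15663 and 17970 in D0 mice 1 and 4, 23055 in D2 mouse 11, and 25620 and 17861 in D3 mice 16 and 20. On the other 9 it ran from 16882 in D2 mouse 13 to 25314 in D2 mouse 15. The part of array brightness in the members' values was not tested. The 4 slides that held forestomach arrays each had arrays of both kinds except the slide with D1 mouse 8, D2 mouse 12 and D3 mouse 17.

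The genes most like the members were found by the root mean square (RMS) difference between a gene's centered profile and the centered mean of the 9 members over the 14 forestomach arrays, among 13384 other genes. The nearest were Cyp2c65, a cytochrome P450 (RMS 0.27), Bpifb1, a secreted BPI-fold protein (0.28), and Clic6, a chloride channel-like protein that is also in the parietal list (0.28). Lrrc26 (0.31), Gsdma2 (0.32), Fer1l4 (0.35), Vsig2 (0.36), Igsf5 (0.38), Psca (0.39) and Pllp (0.39) followed. Psca, a surface antigen, is also in the mucous list. Cyp2c65 was 0.24, 5.21, 5.00 and 0.45 in the vehicle mice and 0.98, 5.42, 3.66 and 5.50 at D2. The members themselves, which are part of the mean, lay at 0.19 for Muc5ac, 0.29 for Tff2, 0.40 for Pgc, 0.43 for Gkn3, 0.46 for Gkn1, 0.70 for Atp4b, 0.74 for Atp4a, 0.95 for Gkn2 and 1.59 for Tff1. By log2 ratio, Tff1 and Gkn2 were thus the members whose pattern departed most from the mean. The Tff1 reference intensity ranged 227-fold and its sample intensity 1126-fold. The part of the reference channel in this departure was not tested. This likeness describes 14 arrays of 4 dose groups and carries no test.

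In lung and liver of vehicle mice the members were low or not well above background. Vehicle forestomach was compared with vehicle lung and vehicle liver in a fit of all 42 arrays. Against lung, limma called 5 of the 9 members (Atp4a, Atp4b, Gkn2, Tff1 and Muc5ac), all higher in forestomach, with 28.8% of 38954 probes called in that comparison. Against liver it called 6 (the same 5 and Gkn1), again all higher in forestomach, with 31.7% of probes called. All 9 members had positive differences in both comparisons, with medians of 3.01 and 2.93 against -0.01 and 0.01 over all probes. Atp4a and Atp4b did not pass the filter on dim probes in lung, nor did these, Pgc, Gkn1, Gkn2 and Tff1 in liver. They entered the fit through forestomach, where they are high, so these counts and medians, and the calls of those genes in those tissues, are a description.

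Tff1 was measured in all 4 vehicle forestomachs. Its mean was 4.45 ± 1.25 in vehicle forestomach, 0.84 ± 0.47 in vehicle lung and -0.12 ± 0.09 in vehicle liver (SD, n = 4 each), a difference of 3.61 with a standard error of 0.55 from lung (limma adjusted p = 1.71e-06) and of 4.56 from liver. Each of the 4 forestomach values was above all 4 lung and all 4 liver values. In liver Tff1 was at background in the 4 vehicle mice, and in the sample channel the forestomach mean was at least 277-fold higher than the liver mean. Such a bound counts each dim array at the higher of its own signal and the lowest signal that was well above background. Gkn2 differed by 4.31 with a standard error of 1.03 from lung (adjusted p = 0.000891) and by 4.64 from liver, and it was at least 101-fold higher than in liver. Without vehicle forestomach mouse 2 or 3 these bounds fell to 114-fold or 105-fold for Tff1 and to 29.2-fold or 28.6-fold for Gkn2, and without mouse 1 or 4 they were 890.1-fold or 552-fold and 404-fold or 303-fold. Muc5ac differed by 3.03 with a standard error of 0.91 from lung (adjusted p = 0.00666), and its mean of 3.14 ± 2.78 in forestomach stood against 0.045 ± 0.21 in liver (SD, n = 4 each, limma adjusted p = 0.00512).

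For the 2 proton pump genes the vehicle forestomach group itself held both kinds of array. The fitted difference of Atp4a from lung was 3.01, and only 2 of the 4 forestomach values lay above all lung values and 1 lay below them all. That of Atp4b was 3.29, and its 4 forestomach values lay above all lung values. Both were at background in the vehicle lungs and livers and in 2 of the 4 vehicle forestomachs, so the fitted differences are taken between values that were in large part not measured, and no fold is given. Without vehicle forestomach mouse 2 the number of members called fell to 2 against lung and 3 against liver, and without mouse 3 it was 3 and 3. Without the lung of vehicle mouse 1 it was 3 against lung. With the compared vehicle groups fitted alone, Gkn2 and Tff1 were called against lung, and these and Muc5ac against liver.

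Gkn3, Tff2 and the brighter Pgc probe were not called in either comparison. Pgc differed by 2.14 with a standard error of 0.90 from lung (limma adjusted p = 0.054), whereas its other probe gave 2.53 and was called (adjusted p = 0.032). Against liver, where both probes were at background in the vehicle mice, the brighter probe gave 2.03 and was not called, and the other gave 2.60 and was called. With the mouse as a replicate block, since the 3 tissues came from the same animals, Pgc passed against lung (adjusted p = 0.0455) and the counts were 6 and 6. Gkn3 was measured in all vehicle lungs and livers, at means of 1.01 ± 0.30 and 0.32 ± 0.12 (SD, n = 4), and differed by 1.39 from lung (adjusted p = 0.268). Tff2 differed by 1.82 from lung (adjusted p = 0.176) and by 2.31 from liver (adjusted p = 0.0795).

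Among the dosed lungs, D1 mouse 7 stood apart. All 9 members were well above background there, with log2 ratios of 6.66 for Gkn2, 5.47 for Tff1, 4.72 for Atp4b, 4.13 for Muc5ac, 4.10 for Tff2, 3.42 for Pgc, 1.64 for Atp4a, 1.62 for Gkn3 and 1.46 for Gkn1. In the 4 vehicle lungs the members lay between -0.56 and 1.53. The other chief and other mucous lists averaged 2.04 and 1.48 there, against 0.80 to 1.08 and -0.03 to 0.07 in the vehicle lungs, and the fat list 3.11 against 0.50 to 1.45. The gastric endocrine list averaged 1.20 against 0.60 to 0.81, and the pancreatic acinar list 0.48 against -0.01 to 0.17. The other parietal list averaged 2.69 against 2.34 to 2.86, the squamous list 0.47 against 0.13 to 0.31, and the lung epithelium list 6.07 against 5.74 to 6.11. This array lay on the slide of the forestomach arrays of D0 mouse 1, D1 mouse 7 and D2 mouse 11. What put these transcripts on that array was not tested.

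Smaller values were seen in other lungs. In D1 mouse 8 Tff1 was 3.65 and Gkn2 2.69, and 8 of 9 members were well above background. Tff1 was 2.51 in D2 mouse 12, 2.15 in D2 mouse 15 and 1.98 in D3 mouse 19, against 0.52 to 1.53 in the vehicle lungs. The lung of D2 mouse 12 also had a skeletal muscle list mean of 4.84 (vehicle lungs -0.86 to -0.56), a squamous mean of 2.80 (0.13 to 0.31), a fat mean of 3.53 (0.50 to 1.45), a lymphocyte mean of -0.51 (0.12 to 0.81) and a lung epithelium mean of 5.21 (5.74 to 6.11). The fat list averaged 1.72 in D1 mouse 8, 2.67 in D2 mouse 15 and 2.30 in D3 mouse 20. The part of these lists in the members' values was not tested. Tff2 was 2.50 in D2 mouse 15 and 1.71 in D3 mouse 20, against 0.06 to 1.18 in the vehicle lungs. Apart from mouse 7, Atp4a was at background in the lungs.

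In liver all member values lay between -0.25 and 0.62 except Tff2 in D3 mice 17 and 20 and Gkn3 in D3 mouse 17. Tff2 was 4.55 in D3 mouse 17 and 3.08 in D3 mouse 20, against 0.62 and 0.43 in the other 2 D3 mice and 0.23 to 0.38 in the vehicle livers. Gkn3 was 1.44 in mouse 17 against 0.20 to 0.46 in the vehicle livers. Gkn1, Gkn2, Atp4b and the brighter Pgc probe were at background in all 13 livers, and the other Pgc probe was well above background in D2 mouse 13. In mouse 17 the skeletal muscle list averaged 3.99 against -0.71 to -0.57 in the vehicle livers, the fat list 2.40 against 0.08 to 0.27 and the pancreatic acinar list 0.81 against 0.08 to 0.20. In that liver the smooth muscle list averaged 0.21 (vehicle -1.48 to -1.25), the other parietal list 0.80 (0.25 to 0.36), the gastric endocrine list 0.52 (0.23 to 0.28), the lymphocyte list -0.96 (-1.88 to -1.48) and the hepatocyte list 7.85 (8.29 to 8.55). The hepatocyte list was also at 7.85 in D3 mouse 16 and 7.98 in D2 mouse 12, where Tff2 was not high. In mouse 20 the fat list averaged 1.37, the smooth muscle list -0.87, the other parietal list 0.69, the skeletal muscle list -0.82 and the pancreatic list 0.11. The part of these tissues in the Tff2 values was not tested.

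**Figure D5:**
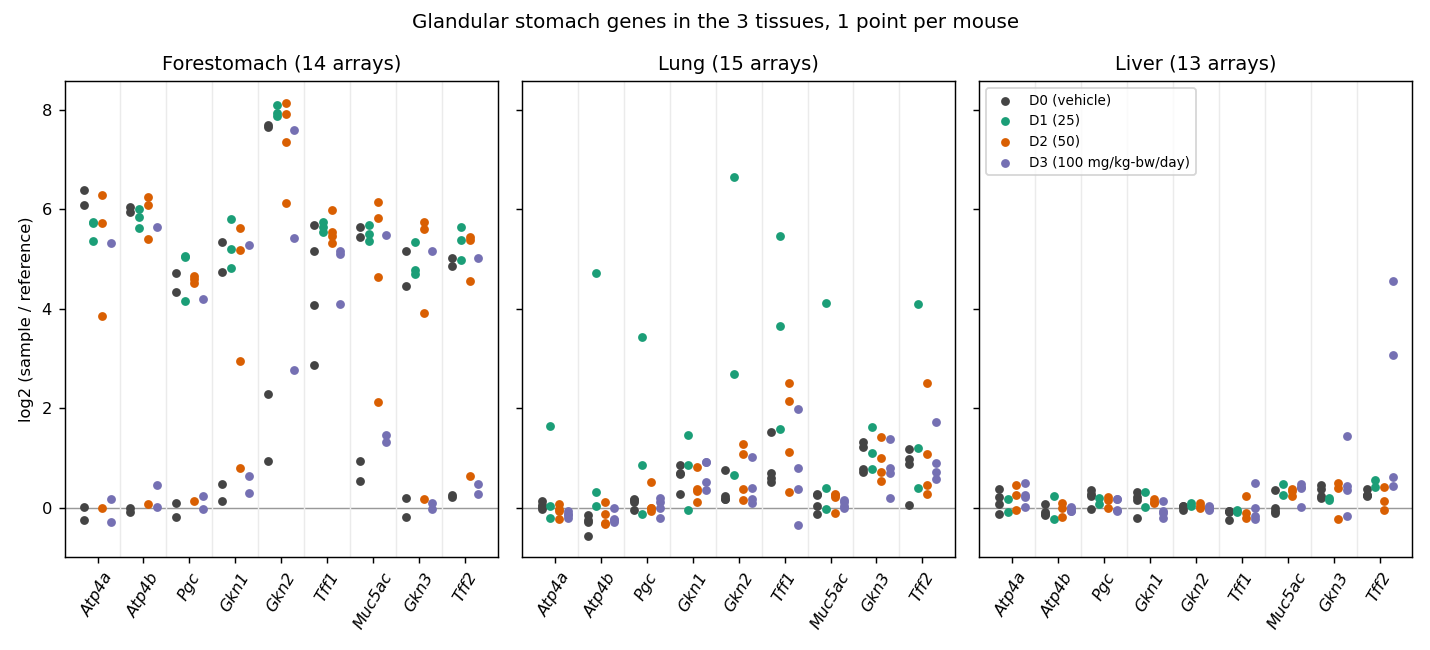
Log2 ratio of sample over reference (vertical axis) of the 9 members (horizontal axes) in forestomach, lung and liver, 1 point per mouse, colored by dose group. The highest values outside forestomach are those of D1 mouse 7 in lung (Gkn2 at 6.66) and, in liver, Tff2 of D3 mice 17 and 20 (4.55 and 3.08).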

How the data were processed

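Messenger RNA was measured on 42 two-colour Agilent arrays from 15 mice. The authors deposited scanner text files with the median intensity of each spot in both channels, a log10 ratio and flags (Feature Extraction 10.7.3.1 for lung and forestomach, 11.0.1.1 for liver, per the file headers), and a table of LOWESS-normalized log2 ratios. Their statistical test (MAANOVA) was not run here. The members and gene lists were chosen with earlier results of these data known.

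Medians were used without background subtraction, and log2 ratios were normalized by loess within each array (limma 3.58.1, R 4.3.3). Control spots (3671 of each array) and outlier spots were left out, and spots of a probe were averaged. Probes were named through RefSeq accessions, with a symbol for 47.4% of the 55681 probes. Testing in forestomach required a sample signal well above background by the scanner's flag on 3 or more arrays (25321 probes, of which 25287 had a value on every array), and in the fit of all arrays on 2 or more. A gene's probe is that with the highest mean intensity over the forestomach arrays.

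Groups were those of the labels. limma fits used the group means of the 14 forestomach arrays, dose as a linear term, or the 12 tissue and dose groups of all 42 arrays, with two-sided p-values adjusted by Benjamini-Hochberg over all probes. Calls needed an adjusted p no higher than 0.05 and, except for the trend, a fold no lower than 1.5. The scripts were tested on simulated data. Same-numbered samples come from the same mouse. Their deviations from the group means correlated between -0.17 and 0.34 over 39 pairs of tissues, and the mouse was used as a block in an alternative. "At least" folds come from sample signals after loess and Aquantile and are open to dye bias. The number of mice limits the precision.

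In the deposited table the lung and forestomach columns correlated with the scanner values (r from 0.9945 to 0.9989, with column medians from -0.0425 to -0.0017 over all tissues), whereas the liver columns did not (r from -0.0030 to 0.0003 by probe) and were not used. Named genes were all members, the 10 genes nearest in profile, and the 3 widest and the narrowest gene of each other list. Alternatives were other normalizations, the sample channel alone, other probe rules, the slide as a block, the compared groups alone, and leaving out each array.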

Additional observations from a re-analysis of the deposited data

Results flagged for a closer look

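Of 45 sets of 4 mice in which a member was well above background in at least 1, 4 held a value far from the other 3 by Dixon's test, which flags about 1 in 20 by chance. In D2 forestomach these were Atp4b in mouse 11, at a log2 ratio of 0.078 against 5.41 to 6.26 in the others, and Pgc in mouse 11, at 0.14 against 4.53 to 4.66. In lung they were Pgc in D2 mouse 12, at 0.52 against -0.07 to 0.00, and Gkn2 in vehicle mouse 3, at 0.76 against 0.18 to 0.23. The lung of D2 mouse 12 also had list means of 4.84 for skeletal muscle, 2.80 for squamous epithelium and 3.53 for fat, against at most -0.56, 0.31 and 1.45 in the vehicle lungs, and their part in the Pgc value was not tested.

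In tissues where the members serve as contrast, values well above background and more than 2 above the highest vehicle mouse were seen on 4 arrays. In the lung of D1 mouse 7 these were Atp4b at 4.72 (vehicle lungs -0.56 to -0.14), Pgc at 3.42 (-0.05 to 0.17), Gkn2 at 6.66 (0.18 to 0.76), Tff1 at 5.47 (0.52 to 1.53), Muc5ac at 4.13 (-0.12 to 0.28) and Tff2 at 4.10 (0.06 to 1.18). In the lung of D1 mouse 8 it was Tff1 at 3.65. In liver it was Tff2, at 4.55 in D3 mouse 17 and 3.08 in D3 mouse 20 (vehicle livers 0.23 to 0.38). These differences were not tested.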

How the results depend on the processing

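In forestomach the number of members called stayed at 0 for every dose and the trend under each alternative tried, each array left out in turn included. Against vehicle lung, 3 members were called with the deposited value table and 2 with the compared groups alone. Against vehicle liver the compared groups alone gave 3. With 1 vehicle array of the compared tissues left out at a time the counts ran from 2 to 7 against lung and from 3 to 9 against liver. The cause of these differences was not tested, except that the compared groups alone have fewer arrays. With the mouse as a replicate block, 6 members were called in both comparisons. Calls of single members also moved. In the sample channel alone Pgc was called against lung (7.48, limma adjusted p = 0.0287) and against liver (7.18), and Tff2 against liver (6.82, adjusted p = 0.0334). With the mean of all probes of a gene Pgc was called against lung (2.33, adjusted p = 0.0405) and against liver (2.31). Atp4a lost its calls against both in the scanner software ratio (3.05 and 2.32), and Atp4b its call against liver with no filter on dim probes (3.05). In forestomach no paired analysis was possible because each mouse had 1 dose.

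None of the members' differences whose sign turned was called. In the scanner software ratio, the D3 difference was -0.027 for Tff1 and 0.65 for Tff2, and Tff2 in vehicle forestomach against lung was -0.22. In the sample channel alone, the D3 difference was -0.21 for Gkn2 and -0.29 for Tff1, also with the compared groups alone, a setting chosen after seeing the data. With 1 array left out, the D3 difference ran from -2.74 to 0.0899 for Atp4b, -2.13 to 0.0616 for Pgc, -2.20 to 0.29 for Gkn1, -0.62 to 1.87 for Gkn2, -0.19 to 0.75 for Tff1, -1.75 to 0.45 for Muc5ac, -2.37 to 0.26 for Gkn3 and -2.22 to 0.16 for Tff2, and the D2 difference of Atp4a from -0.20 to 2.23. The D1 differences and the other D2 differences kept their sign with 1 array left out, but their size moved. At D2 the difference ran from 0.463 to 2.942 for Atp4b and from 1.506 to 3.759 for Gkn2. At D1 it ran from 2.092 to 4.345 for Gkn2 and from 0.67 to 1.61 for Tff1. The deposited value table could not be used for liver. The dim sample channel of the 5 low arrays bounds what the ratios can show there.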
